A study of Mus musculus with 55 samples.

Results

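Immature granule neuron genes are genes that newborn neurons of the dentate gyrus express while they grow out, and their RNA is used as a read-out of adult neurogenesis. The group was chosen by name, with earlier results of these data known. It held 9 members, Dcx, Sox11, Sox4, Neurod1, Neurod2, Igfbpl1, Draxin, Tubb3 and Stmn2, out of 45318 genes in the tables. All 9 passed the filter on low counts, which left 18283 genes for testing. They were measured by bulk RNA-seq in the ventral dentate gyrus of 54 male C57BL/6J mice. Mice were raised from weaning in standard housing (SH) or in an enriched environment (EE), that is, in larger groups with tunnels, objects and running wheels, and were sampled as young adults. Mice from each housing were left unstressed (CON) or exposed, after the housing period, to chronic social defeat stress (CSDS) by CD-1 aggressors. During defeat each mouse lived in part of a divided cage next to an aggressor, away from its earlier housing. The methods do not state how CON mice were kept in that time. A social interaction ratio above 1 after defeat classed a mouse as resilient (RES) and a lower one as susceptible (SUS). The groups held 10 SH CON, 7 SH RES, 10 SH SUS, 9 EE CON, 9 EE RES and 9 EE SUS mice, and RNA was not pooled between mice. Since RES and SUS were assigned by behavior after defeat, a RES to SUS difference is not that of a treatment, and EE differs from SH in company, exercise and objects at once. In RES and SUS mice, EE minus SH compares the housing before defeat. A difference of defeated from CON mice cannot be told apart from the change of cage. Cages are not named in the labels, so differences between cages and between housings cannot be told apart.

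New granule cells of the adult dentate gyrus arise from neural stem cells in the subgranular zone, pass through dividing progenitors and then spend weeks as immature neurons before they mature. SoxC transcription factors (Sox4 and Sox11) and proneural basic helix-loop-helix factors (Neurod1 and Neurod2) drive this differentiation, and the microtubule-associated protein doublecortin (Dcx) is the usual histological marker of the immature stage. Running and enriched housing are known for raising the number of new granule cells in rodents, and chronic stress for lowering their production. In bulk tissue, fewer cells of a type and less RNA per cell cannot be told apart.

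The genes differed widely in level. CPM are a gene's counts scaled to a common library size, and RPKM are CPM per kilobase of its annotated exons. By RPKM, the order over the 54 mice was Tubb3, Stmn2, Neurod2, Neurod1, Sox11, Sox4, Dcx, Igfbpl1 and Draxin. Tubb3, the neuronal beta-tubulin, had 117.7 ± 13.9 RPKM (SD, n = 54), and Stmn2, a stathmin that regulates microtubules in growing axons, had 32.9 ± 4.77. Neurod2 had 18.9 ± 2.57, Neurod1 10.7 ± 1.26, Sox11 4.36 ± 0.594 and Sox4 2.92 ± 0.304 RPKM. Dcx stood at 1.20 ± 0.144 RPKM, Igfbpl1, a secreted protein related to insulin-like growth factor binding proteins, at 0.818 ± 0.266, and Draxin, a secreted repulsive axon guidance protein, at 0.182 ± 0.0555. Each neighbour pair in this order was ranked the same way in all 54 mice, except that Dcx lay above Igfbpl1 in 50 of 54. Tubb3 and Stmn2 are also expressed by mature neurons, and Neurod1 and Neurod2 stay on in many mature forebrain neurons.

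On GRCm38, the build of the deposited tables, Dcx (ENSMUSG00000031285) lies at chrX:143855842-143933311 and Sox11 (ENSMUSG00000063632) at chr12:27334264-27342574. Sox4 (ENSMUSG00000076431) lies at chr13:28948919-28953713, Neurod1 (ENSMUSG00000034701) at chr2:79452521-79456751 and Neurod2 (ENSMUSG00000038255) at chr11:98325415-98329648. Igfbpl1 (ENSMUSG00000035551) and Draxin (ENSMUSG00000029005) share chromosome 4, at chr4:45809468-45826923 and chr4:148098437-148130698, and all these genes are on the minus strand. Tubb3 (ENSMUSG00000062380) at chr8:123411424-123422015 and Stmn2 (ENSMUSG00000027500) at chr3:8509360-8561606 are on the plus strand. Counts are sums over annotated exons. Neurod1 overlaps Cerkl on the same strand (median 192 counts per mouse, against 621 for Neurod1) and Tubb3 overlaps Gm20388 on the same strand (median 0 counts), so reads shared by such a pair are uncertain, while Draxin overlaps Mad2l2 on the opposite strand, which strand-specific counting keeps apart.

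Some of the 9 genes varied together across mice, and their promoters are shown so that shared letters can be read directly. RefSeq windows on GRCm38.p6 were available for 7 of the 9 members, and Igfbpl1 and Stmn2 have no entry. The 250 bases before the start were searched on both strands for the SOX core ACAAAG and for the E-boxes CAGATG and CATATG, which proneural factors bind. CATATG reads the same on both strands, and no 2 matches overlap in the windows printed. ACAAAG was present in 16.5% of all 32851 such windows, CAGATG in 14.4% and CATATG in 3.46%. Matches are in capitals in the following 4 windows, which hold them for Sox11, Neurod1, Neurod2 and Draxin.
Sox11 (chr12:27342719-27342968, minus strand): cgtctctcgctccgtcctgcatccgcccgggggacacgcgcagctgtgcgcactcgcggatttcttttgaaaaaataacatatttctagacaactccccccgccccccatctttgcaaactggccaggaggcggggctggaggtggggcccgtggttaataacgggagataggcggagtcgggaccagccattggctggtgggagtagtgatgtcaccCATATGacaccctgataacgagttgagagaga
Neurod1 (chr2:79456637-79456886, minus strand): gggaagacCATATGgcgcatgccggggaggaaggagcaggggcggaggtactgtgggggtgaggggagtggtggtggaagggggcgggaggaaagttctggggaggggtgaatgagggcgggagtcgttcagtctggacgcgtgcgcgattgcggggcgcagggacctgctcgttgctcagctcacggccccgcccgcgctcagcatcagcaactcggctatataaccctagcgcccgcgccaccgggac
Neurod2 (chr11:98329646-98329895, minus strand): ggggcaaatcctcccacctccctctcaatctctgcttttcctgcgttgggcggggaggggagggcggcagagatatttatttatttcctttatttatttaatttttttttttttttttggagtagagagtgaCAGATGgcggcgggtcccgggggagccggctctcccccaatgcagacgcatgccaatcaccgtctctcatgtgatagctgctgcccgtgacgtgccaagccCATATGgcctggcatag
Draxin (chr4:148130699-148130948, minus strand): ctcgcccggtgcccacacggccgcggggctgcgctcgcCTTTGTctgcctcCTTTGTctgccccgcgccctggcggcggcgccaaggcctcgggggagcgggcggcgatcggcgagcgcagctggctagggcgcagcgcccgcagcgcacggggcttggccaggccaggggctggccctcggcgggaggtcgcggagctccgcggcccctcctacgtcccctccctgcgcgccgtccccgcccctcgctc

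Sox11 and Neurod1 (rho 0.485 between their levels over the mice) each hold 1 CATATG, starting at -32 and -242 from the start. Neurod2, whose rho with them was 0.006 and -0.037, holds a CAGATG at -118 and a CATATG at -17. Draxin (rho 0.587 with Sox11) holds ACAAAG 2 times on the strand opposite to the gene, at -212 and -199, where it reads CTTTGT. Of the other windows, 1 of the 2 Dcx windows holds an ACAAAG at -8, and those of Sox4 and Tubb3 hold none of the 3 motifs. A match describes letters in this window and not binding.

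Depth was between 16760009 and 45872357 counts on genes per mouse (median 21552884). The share of read pairs on no gene was between 19.9% and 28.8%. Tubb3 was counted 3492 to 10516 times per mouse, Dcx 232 to 829 times, Igfbpl1 26 to 202 times and Draxin 6 to 47 times. Counting alone gives a coefficient of variation of 1.44% for Tubb3, 5.47% for Dcx, 13.0% for Igfbpl1 and 21.9% for Draxin, which covers counting error only. The spread between mice of one group was wider, at 11.5% for Tubb3, 11.1% for Dcx, 30.2% for Igfbpl1 and 30.7% for Draxin. EE CON mouse 9 has 2 sets of counts, the second labelled as a repeat, which were summed. The label does not say whether the repeat is a second run, library or RNA sample, and both sets are called runs here. Between these runs 7 of the 9 genes differed by less than 2 counting errors, and Neurod2 (56.0 and 50.6 CPM) and Tubb3 (235.5 and 223.3 CPM) by -2.49 and -2.72 counting errors (second run against first, log2 scale).

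Marker lists were read beside the tissue label. All 18 genes of a mature granule cell list that includes Prox1, C1ql2 and Calb1 were detected, with a summed level of 1928 to 3423 CPM per mouse. All genes of the CA1, CA3, mossy cell, interneuron and thalamic lists passed the filter as well, so detection does not test the label. Marker lists of other regions varied in level between mice. Some genes are shared between lists, so a summed level is not an amount of tissue. The summed level of 10 CA3 pyramidal cell genes ran from 700.2 to 1133 CPM, that of 10 thalamic genes from 292.6 to 1023 CPM, and that of 11 choroid plexus genes from 21.03 to 1024 CPM. No listed gene of these was at 0 in all mice. Of 10 cerebellar granule cell genes 6 passed the filter, with a summed level of 44.42 to 102.9 CPM. The choroid plexus gene Tmem72 and the cerebellar granule cell gene Barhl1 had no count in 32 and 50 of the 54 mice. These genes were picked after their values were seen, and they do not show that the tissues were absent.

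One mouse stood apart in 2 genes, although 2 flags over 54 pairs of a member and a group are no more than chance gives. SH RES mouse 5 had 5.89 CPM of Igfbpl1, where the next SH RES mouse had 2.33, and 48.6 CPM of Sox11, where the next had 40.4. Among all 54 mice it had the highest Igfbpl1 and the highest Dcx (19.8 CPM), the second highest Sox11 and the seventh highest Draxin (1.32 CPM), but ranked 22 for Sox4 and 52 for Neurod2. It also had the lowest mean z-score of the 54 for the oligodendrocyte precursor list (-1.07) and the immediate early gene list (-1.39), while it ranked 2 for the list of other immature neuron genes (0.369) and 12 for the progenitor and division list (0.383). Results that include SH RES mice are given without it too where it took a member across an unadjusted p of 0.05.

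**Figure D1:**
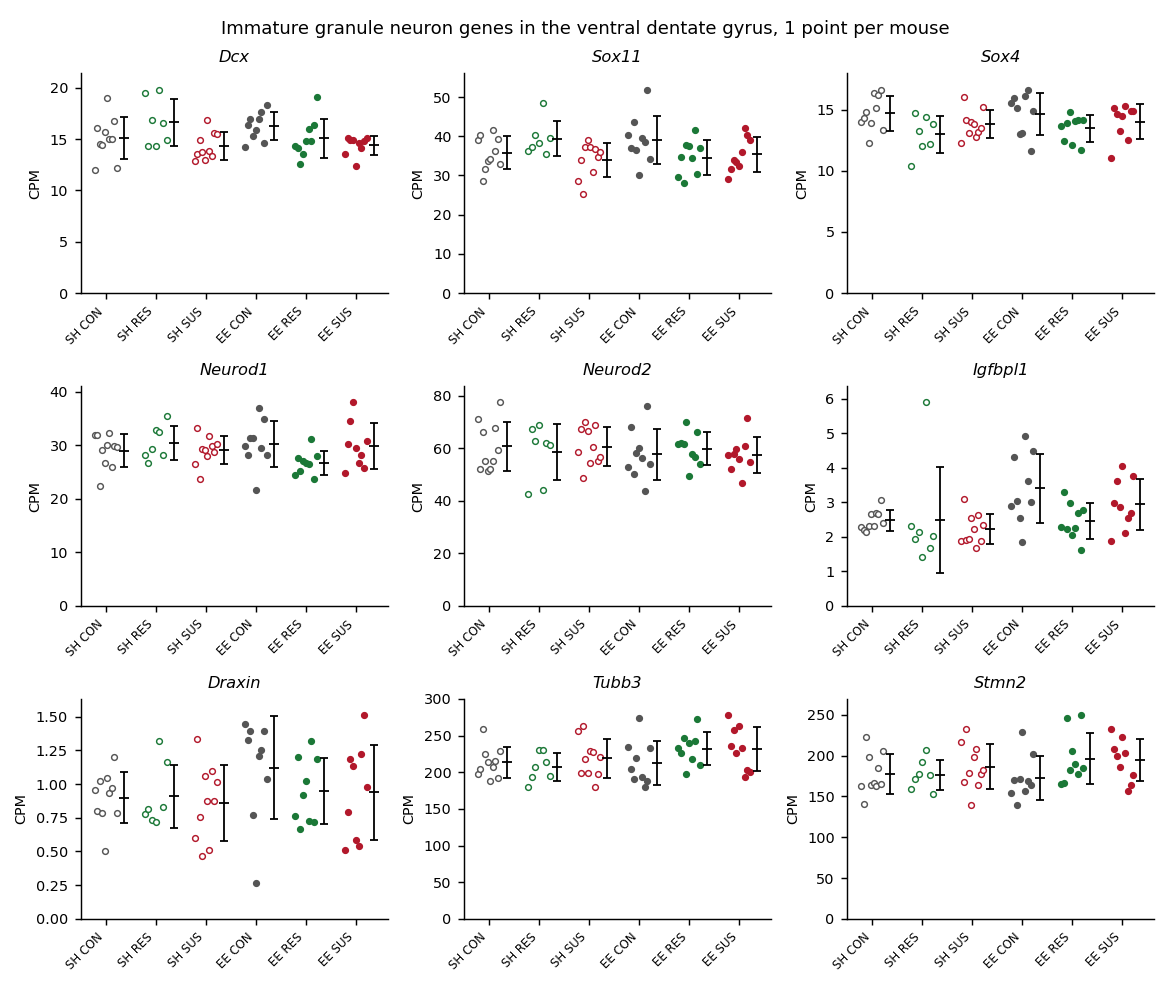
CPM (y axis, from 0) of the 9 genes in each mouse of the 6 groups (x axis). Open points are SH mice, filled points EE mice, grey CON, green RES and red SUS, and the bars beside them are the mean ± SD of the group. The groups overlap for every gene, and the single open green Igfbpl1 point at 5.89 CPM is SH RES mouse 5.

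No member passed an adjusted p of 0.05 in any of the 15 comparisons by the edgeR quasi-likelihood test with Benjamini-Hochberg adjustment over all genes, and the lowest adjusted p was 0.12. DESeq2 and limma-voom also called 0 members, and limma-voom with sample quality weights called 1, Igfbpl1 in EE minus SH over the phenotypes. At an unadjusted p under 0.05 the edgeR test gave 20 of the 126 pairs of a member and a signed comparison (15.9%), beside 6.88% of the pairs over all genes in the same 14 comparisons. These pairs share mice, and the members were chosen with earlier results of these data known. The pairs are therefore described as values, not as changes.

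The first question was whether housing moved the genes. For EE minus SH over the mean of CON, RES and SUS, 0 of 9 members were called where 2.42% of all genes tested were (442 genes, 161 higher and 281 lower in EE). At an unadjusted p under 0.05 it was 1 of 9 members beside 17.6% of all genes, and that member was Igfbpl1. The median log2 difference of the members was 0.02, beside 0.00 over all genes.

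Igfbpl1, which is found in neuroblasts and early immature neurons, was the member with the widest housing difference. SH CON mice had 2.14, 2.20, 2.28, 2.30, 2.32, 2.40, 2.66, 2.67, 2.70 and 3.06 CPM, and EE CON mice 1.85, 2.54, 2.89, 3.01, 3.03, 3.62, 4.31, 4.47 and 4.91. The ranges overlapped, with 4 of 9 EE CON mice above every SH CON mouse and 1 below all of them. SH SUS mice had 1.69 to 3.08 CPM (median 2.08) and EE SUS mice 1.87 to 4.04 (median 2.87), with 3 of 9 EE SUS mice above every SH SUS mouse. SH RES mice had 1.43, 1.66, 1.95, 2.03, 2.15 and 2.33 CPM besides the 5.89 of mouse 5, and EE RES mice 1.61 to 3.29 (median 2.29). Over all phenotypes 20 of 27 EE mice lay above the SH median of 2.28 CPM, and 3 of 27 SH mice above the EE median of 2.87.

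The Igfbpl1 log2 difference of EE minus SH was 0.29 (SE 0.11, 95% interval 0.08 to 0.50) over the 3 phenotypes, or 22.3% higher, with an unadjusted p of 0.0079 and an adjusted p of 0.12 (edgeR). It was 0.47 (SE 0.17) in CON with an adjusted p of 0.86, where 0 of 9 members and 0.00547% of genes were called, and 0.41 (SE 0.18) in SUS with an adjusted p of 0.62, where 0.00547% were called as well. In RES it was -0.02 (SE 0.20) with an adjusted p of 0.97, where 0.273% were called. At an unadjusted p under 0.05 there was 1 member in CON (5.02% of all genes), 3 in RES (16% of all genes, the members being Sox11, Neurod1 and Tubb3) and 1 in SUS (7.36%). SH RES mouse 5 decides the Igfbpl1 values in RES and over the phenotypes, while those in CON and SUS were 0.47 and 0.41 without it as well. Without it the RES difference was 0.35 (SE 0.17, adjusted p 0.33) and the difference over the phenotypes 0.41 (SE 0.09), or 33.0% higher, with an adjusted p of 0.0044, and Igfbpl1 was then the 1 member called beside 2.39% of all genes. Within CON, RES and SUS 0 of 9 members were called without that mouse, beside 0.0217%, 0.158% and 0.0163% of all genes. The mouse was singled out by its Igfbpl1 level, which was high in an SH group, so leaving it out widens the difference by construction. With all 54 mice, limma-voom with sample quality weights also called Igfbpl1 over the phenotypes (log2 difference 0.37, adjusted p 0.019). With each other mouse left out in turn the lowest adjusted p of a member in this comparison was 0.096.

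Draxin, which turns growing axons away, was the thinnest in counts of the 9. SH CON mice had 0.505 to 1.20 CPM (median 0.943) and EE CON mice 0.265 to 1.45 (median 1.25). Its EE minus SH log2 difference was 0.17 (SE 0.12, 95% interval -0.08 to 0.42, adjusted p 0.51), so that its interval ran from -5.27% to 33.3%. In CON it was 0.30 (SE 0.20, adjusted p 0.98).

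The transcription factors were measured more tightly. Sox4 and Sox11, the SoxC factors, differed between the housings by 0.02 (95% interval -0.05 to 0.10) and 0.00 (-0.10 to 0.10) on the log2 scale, and Neurod1 and Neurod2 by -0.03 (-0.12 to 0.06) and -0.04 (-0.15 to 0.07). For these 4 genes the intervals together ran from -9.69% to 7.38%. Within RES mice Sox11 had 35.4 to 48.6 CPM in SH (median 38.2) and 28.1 to 41.7 in EE (median 34.8), a log2 difference of -0.19 (SE 0.09, adjusted p 0.29), and of -0.13 (SE 0.09, unadjusted p 0.15) without SH RES mouse 5. Neurod1 had 26.7 to 35.5 CPM in SH RES (median 29.4) and 23.7 to 31.2 in EE RES (median 26.8), also a log2 difference of -0.19 (SE 0.08, adjusted p 0.23). Both pairs of groups overlapped.

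Among the cytoskeletal genes, Dcx is the marker most used. Dcx had 12.01 to 19.8 CPM in SH (median 14.9, n = 27) and 12.3 to 19.1 in EE (median 14.9, n = 27), a log2 difference of -0.01 (95% interval -0.09 to 0.08, adjusted p 0.96), that is from -6.10% to 5.60%. Tubb3 had 179.8 to 263.3 CPM in SH and 179.4 to 277.8 in EE, a log2 difference of 0.08 (-0.00 to 0.17, unadjusted p 0.063, adjusted p 0.32), and of 0.09 (SE 0.04, unadjusted p 0.045, adjusted p 0.28) without SH RES mouse 5. Stmn2 had 139.6 to 232.3 CPM in SH and 139.2 to 249.5 in EE, a log2 difference of 0.06 (-0.05 to 0.16, adjusted p 0.62). Tubb3 lay higher in EE than in SH within RES mice by 0.16 (SE 0.08, adjusted p 0.29).

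**Figure D2:**
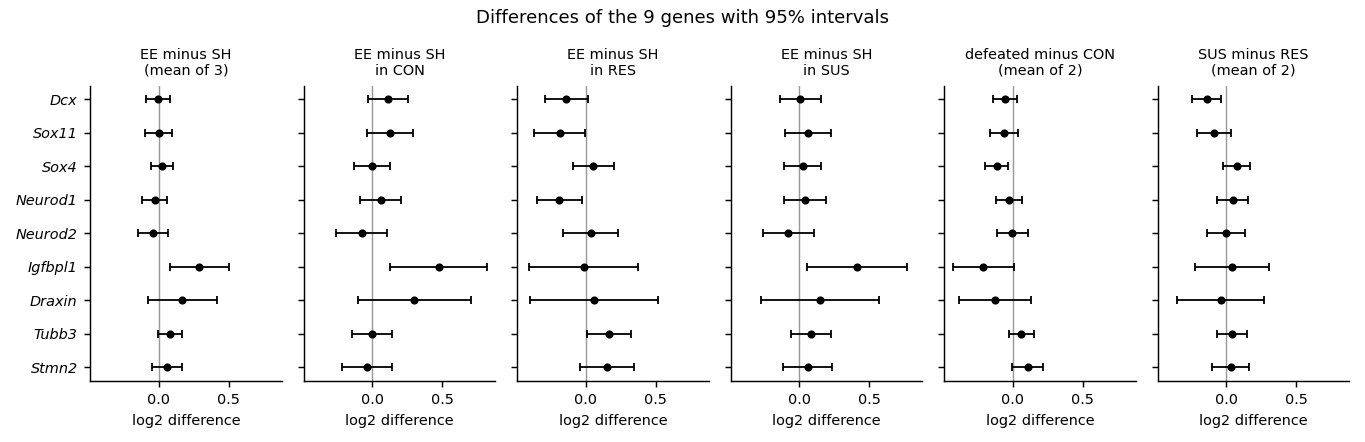
Log2 differences (x axis) of the 9 genes (rows) in 6 comparisons, as the edgeR estimate with its 95% interval. The Igfbpl1 interval lies above 0 for EE minus SH over the phenotypes (0.08 to 0.50), in CON and in SUS, but is centred near 0 in RES, and the Dcx interval lies below 0 for SUS minus RES (-0.25 to -0.04), all before adjustment over 18283 genes.

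Markers of other cell types moved with housing beside these values. Of the 18 mature granule cell genes 2 were higher and the others lower in EE, with a median log2 difference of -0.13 over the phenotypes and -0.28 in RES. Over the phenotypes 2 were called, both lower (Dsp -0.30 and Tdo2 -0.28, adjusted p 0.028 and 0.021), beside 2.42% of all genes. In RES mice the summed mature granule cell level was 2734 to 3040 CPM in SH and 2002 to 2885 in EE, and the summed CA3 level 714.9 to 847.5 CPM in SH and 822.3 to 1133 in EE. All 10 oligodendrocyte genes were higher in EE over the phenotypes (median 0.26, 9 at an unadjusted p under 0.05), and so were 9 of 10 endothelial genes (median 0.11, 6 at an unadjusted p under 0.05). There 17.6% of all genes were under an unadjusted p of 0.05. In SUS all 10 thalamic genes were higher in EE (median 0.67, 9 at an unadjusted p under 0.05, beside 7.36% of all genes). With choroid plexus and thalamus scores as covariates Igfbpl1 in SUS was 0.57 (SE 0.17, adjusted p 0.55). With the CA1, CA3 and mature granule cell scores as covariates, the EE minus SH log2 difference in RES was -0.02 for Sox11, -0.04 for Neurod1 and -0.00 for Tubb3. In another comparison, EE minus SH over the phenotypes, Igfbpl1 was 0.34 (adjusted p 0.13) with the same covariates. Igfbpl1 in RES was -0.02 without covariates, so the values of the 2 comparisons cannot be set side by side. The marker scores come from the same libraries as the members, and their part in the housing values was not tested further.

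Social defeat was the second question. In defeated minus CON mice, as the mean of RES and SUS and of both housings, 0 of 9 members were called where 0.0438% of all genes were (8 genes, all higher), and 1 of 9 was under an unadjusted p of 0.05 where 4.81% of all genes were. That member was Sox4, which acts with Sox11 in newborn neurons. SH CON mice had 12.3 to 16.7 CPM of Sox4 (median 14.6), SH RES mice 10.4 to 14.8 (median 13.3) and SH SUS mice 12.3 to 16.1 (median 13.7). EE CON mice had 11.6 to 16.6 CPM (median 15.2), EE RES mice 11.7 to 14.9 (median 13.9) and EE SUS mice 11.03 to 15.3 (median 14.7). Medians were thus below CON in all 4 defeated groups, with overlap throughout, and the log2 difference was -0.11 (SE 0.04, 95% interval -0.20 to -0.03), or -7.65%, with an unadjusted p of 0.0067 and an adjusted p of 0.83 (edgeR). Gm26735 overlaps Sox4 on the opposite strand and had a median of 2 counts.

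Of the other members, Igfbpl1 lay at -0.21 (SE 0.11) in defeated minus CON mice with an adjusted p of 0.99, and at -0.30 (SE 0.09) with an adjusted p of 0.57 without SH RES mouse 5, where 0 of 9 members and 0.0435% of all genes were called. Dcx lay at -0.06 (95% interval -0.14 to 0.03), Sox11 at -0.06 (-0.17 to 0.04), Neurod1 at -0.03 (-0.12 to 0.06) and Neurod2 at -0.00 (-0.11 to 0.11). Draxin lay at -0.13 (-0.38 to 0.13), Tubb3 at 0.06 (-0.03 to 0.15) and Stmn2 at 0.11 (-0.01 to 0.22). So 7 of 9 differences were below 0, Neurod2 by only -0.0026, and the exceptions were Tubb3 and Stmn2. Without SH RES mouse 5 Neurod2 was 0.0128, and 6 of 9 differences were below 0. The member median with all mice was -0.06 beside -0.00 over all genes. In the same comparison 0 of 18 mature granule cell genes were higher (median -0.08), 1 of 10 astrocyte genes (median -0.05), 10 of 10 thalamic genes (median 0.43, 8 at an unadjusted p under 0.05, beside 4.81% of all genes) and 0 of 11 choroid plexus genes (median -0.55). With the choroid plexus and thalamus scores as covariates Sox4 was -0.10 (SE 0.04, adjusted p 0.98).

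Within SH, RES minus CON called 0 of 9 members and 0% of all genes, and SUS minus CON 0 of 9 members and 0.0328% of all genes. Sox4 was -0.18 (SE 0.07, adjusted p 0.9999) in RES minus CON, which made 1 of 9 members under an unadjusted p of 0.05 beside 3.51% of all genes, and SUS minus CON had 0 of 9 beside 2.78%. Igfbpl1 was 0.01 (SE 0.19, adjusted p 0.9999) in RES minus CON, and -0.35 (SE 0.17, adjusted p 0.9999) without SH RES mouse 5. Without that mouse SUS minus CON called 0 of 9 members and 0.0326% of all genes. Within EE, RES minus CON and SUS minus CON each called 0 of 9 members and 0% of all genes. At an unadjusted p under 0.05, EE RES minus EE CON held 4 of 9 members where 7.91% of all genes stood there. They were Igfbpl1 at -0.48 (SE 0.18, adjusted p 0.56), Neurod1 at -0.18 (SE 0.08, adjusted p 0.61), Sox11 at -0.17 (SE 0.08, adjusted p 0.63) and Stmn2 at 0.18 (SE 0.09, adjusted p 0.63). In that comparison all 10 CA3 genes were higher (median 0.21) and 2 of 18 mature granule cell genes were (median -0.19), and with these scores as covariates Sox11 was -0.02, Neurod1 -0.11, Stmn2 -0.02 and Igfbpl1 -0.39. EE SUS minus EE CON held 1 of 9 members beside 7.9% of all genes, and that was Dcx. EE CON mice had 14.2 to 18.3 CPM of Dcx (median 16.4) and EE SUS mice 12.3 to 15.2 (median 14.8), with 7 of 9 EE CON mice above every EE SUS mouse, and the log2 difference was -0.18 (SE 0.07, adjusted p 0.53). There 10 of 10 thalamic genes were higher in EE SUS, all under an unadjusted p of 0.05 (median 1.19), as were 9 of 10 CA3 genes (median 0.16) and 1 of 18 mature granule cell genes (median -0.12), and with choroid plexus and thalamus scores as covariates Dcx was -0.18 (SE 0.08, adjusted p 0.97).

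The test of whether defeat acted differently in the housings called 0 of 9 members and 0% of all genes, with 1 of 9 members (Dcx) beside 6.47% of all genes under an unadjusted p of 0.05. Dcx gave -0.18 (SE 0.09, 95% interval -0.36 to -0.00, adjusted p 0.76), and -0.16 (SE 0.09, unadjusted p 0.076) without SH RES mouse 5. Igfbpl1 gave -0.27 (SE 0.22, adjusted p 0.84) with that mouse and -0.09 (SE 0.18, adjusted p 0.94) without it, so a housing difference of the defeat response was not shown for any member.

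The third question was RES against SUS. SUS minus RES called 0 of 9 members and 0% of all genes in SH, in EE, over the mean of both housings and as an interaction with housing. Under an unadjusted p of 0.05 there were 2 of 9 members in SH (4.88% of all genes), 1 in EE (3.52%), 1 over both housings (3.67%) and 2 in the interaction (4.84%). Dcx was the member nearest to a difference. SH RES mice had 14.3, 14.4, 14.9, 16.5, 16.9, 19.5 and 19.8 CPM of Dcx, and SH SUS mice 12.8 to 16.9 (median 13.8), with 3 of 7 SH RES mice above every SH SUS mouse and 6 of 10 SH SUS mice below every SH RES mouse. The log2 difference was -0.22 (SE 0.08, 95% interval -0.37 to -0.06), or -13.9%, with an unadjusted p of 0.0062 and an adjusted p of 0.93 (edgeR), and -0.17 (SE 0.08, adjusted p 0.993) without SH RES mouse 5. In EE it was -0.07 (SE 0.07, adjusted p 0.9997), and over both housings -0.14 (SE 0.05, unadjusted p 0.0094, adjusted p 0.9993). The housing difference of this contrast was 0.15 (SE 0.11, adjusted p 0.98). Igfbpl1 over both housings was 0.04 (SE 0.13, adjusted p 0.9993), and 0.23 (SE 0.11, unadjusted p 0.047, adjusted p 0.9995) without SH RES mouse 5.

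Sox11 went the same way in SH. It had 25.3 to 39.0 CPM in SH SUS (median 35.3) beside 35.4 to 48.6 in SH RES (median 38.2), a log2 difference of -0.21 (SE 0.09, adjusted p 0.93), which was -0.16 (SE 0.09) without SH RES mouse 5. In that comparison 4 of 18 mature granule cell genes (median -0.08) and 8 of 10 CA3 genes (median 0.16) were higher in SUS, and with CA1, CA3 and mature granule cell scores as covariates Sox11 was -0.15 (SE 0.06) and Dcx -0.20 (SE 0.08). In EE, Neurod1 was 0.16 (SE 0.08, adjusted p 0.9997) in SUS minus RES, from 23.7 to 31.2 CPM in EE RES (median 26.8) and 24.9 to 38.0 in EE SUS (median 29.5). The interaction with housing was 0.25 (SE 0.12, adjusted p 0.98) for Sox11 and 0.23 (SE 0.11, adjusted p 0.98) for Neurod1, and without SH RES mouse 5 it was 0.19 (SE 0.12, unadjusted p 0.12) and 0.22 (SE 0.11, unadjusted p 0.061). A test for any difference among the 6 groups called 0 of 9 members and 0.35% of all genes, with the lowest member p at 0.0086 for Igfbpl1 (adjusted p 0.26) and 0.022 for Dcx (adjusted p 0.35), where 11.1% of all genes were under an unadjusted p of 0.05. Without SH RES mouse 5 it called Igfbpl1 alone, with an adjusted p of 0.015 and 0.419% of all genes called.

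Other genes of the lineage were taken from 2 lists. Of 40 further immature neuron genes 39 were tested, with 21 of 39 above 0 in EE minus SH over the phenotypes and a median of 0.01. There 2 were called, both lower in EE, beside 2.42% of all genes. They were Marcksl1, an actin-binding substrate of protein kinase C, at -0.28 (SE 0.05, adjusted p 0.0011) and Dclk1, a doublecortin-like kinase that mature neurons also express, at -0.12 (SE 0.02, adjusted p 0.0022), and the next by p was Fxyd7 at 0.26 (SE 0.08, adjusted p 0.058). Marcksl1 was also called in RES mice alone at -0.43 (SE 0.09, adjusted p 0.027). Without SH RES mouse 5 the same count of 2 genes, Marcksl1 and Dclk1, was called. In defeated minus CON mice 0 of the 39 were called by edgeR, beside 0.0438% of all genes. Under an unadjusted p of 0.05 there were 5 of 39, 3 higher and 2 lower, beside 4.81% of all genes. They were led by Stmn4 (0.06), Dclk1 (-0.05) and Fxyd7 (0.18), each with an adjusted p of 0.99.

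Of 25 genes of neural progenitors and cell division 23 were tested, and 0 were called in EE minus SH by edgeR, beside 2.42% of all genes. Under an unadjusted p of 0.05 there were 8 of 23, 6 higher and 2 lower in EE, beside 17.6% of all genes. The median over the 23 was 0.02. The 3 lowest p belonged to Mcm6, a replication licensing helicase subunit, at -0.20 (SE 0.06, adjusted p 0.085), Elavl3, an RNA-binding protein of neurons, at 0.09 (SE 0.03, adjusted p 0.11), and Top2a, the topoisomerase of dividing cells, at 0.24 (SE 0.09, adjusted p 0.14). Without SH RES mouse 5 Top2a was called, at 0.31 (SE 0.09, adjusted p 0.044), as 1 of the 23, beside 2.39% of all genes. In defeated minus CON mice 0 of 23 were called, beside 0.0438% of all genes, and 2 of 23 were under an unadjusted p of 0.05, beside 4.81%. They were Top2a at -0.25 (SE 0.10, adjusted p 0.86) and Mki67, the proliferation marker Ki-67, at -0.19 (SE 0.09, adjusted p 0.99), with Cenpf next at -0.15. In that comparison 5 of 23 lay above 0, with a median of -0.08 beside -0.00 over all genes, -0.08 for the mature granule cell genes and 0.43 for the thalamic genes.

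The 9 genes did not vary as one set across mice. The following Spearman correlations over the 54 mice are descriptions, since each point is 1 library in which all genes share one RNA sample, one depth and one mix of cells. Igfbpl1 went with Draxin (rho 0.662, and 0.468 after subtracting group means) and with Sox4 (0.571, and 0.515 after subtracting group means), and Sox11 with Draxin (0.587) and Neurod1 (0.485). Tubb3 and Stmn2 went together (0.773) and against Sox11 (-0.584 and -0.672) and Draxin (-0.452 and -0.526). The highest rho of Dcx with another member was 0.266 (Sox4), and with Neurod2 it had -0.555 (-0.628 after subtracting group means). Leaving out SH RES mouse 5 moved these values by little, for example to 0.648 for Igfbpl1 and Draxin.

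Scores of marker lists, each the mean z-score of the list in a mouse, differed between the members. Sox4, Igfbpl1 and Draxin had their highest rho with the progenitor and division list (0.547, 0.492 and 0.514). After subtracting group means this held for Sox4 (0.501) and Igfbpl1 (0.375), while Draxin then had 0.601 with the mature granule cell list and 0.483 with the progenitor and division list. Sox11 and Neurod1 had theirs with the mature granule cell list (0.622 and 0.522). Stmn2 and Tubb3 had theirs with the CA3 list (0.840 and 0.673), and lay against the mature granule cell list (-0.723 and -0.770). Neurod2 and Dcx had no rho above 0.269 with any list named here. Their lowest were -0.358 for Neurod2 with the astrocyte list and -0.257 for Dcx with the CA3 list. With the list of other immature neuron genes Stmn2 and Tubb3 had 0.460 and 0.458, Dcx 0.032 and Sox11 -0.295. Tubb3 and Stmn2 had a rho of -0.511 and -0.391 with the share of read pairs on no gene, and Dcx had 0.322.

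**Figure D3:**
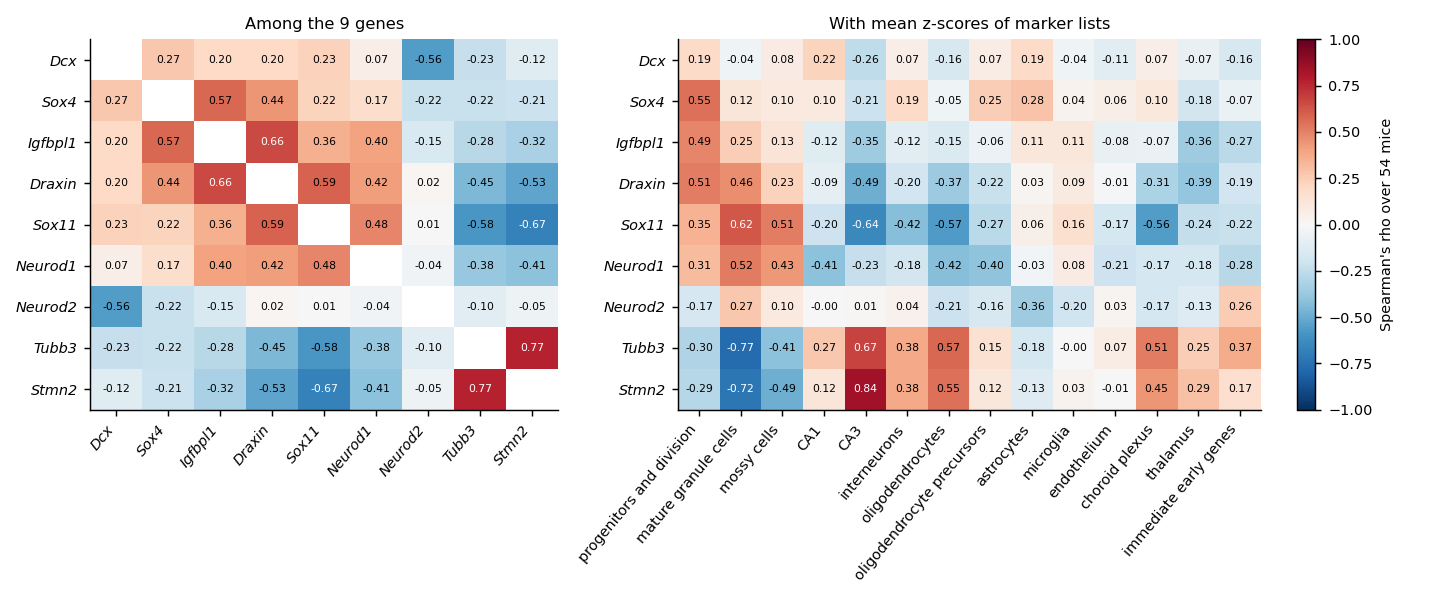
Spearman's rho over 54 mice (color, from -1 to 1) among the 9 genes (left) and between the genes and the mean z-scores of 14 marker lists (right). Tubb3 and Stmn2 form a block at 0.77 that is negative with Sox11 and Draxin, and Stmn2 and the CA3 list stand at 0.84.

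**Figure D4:**
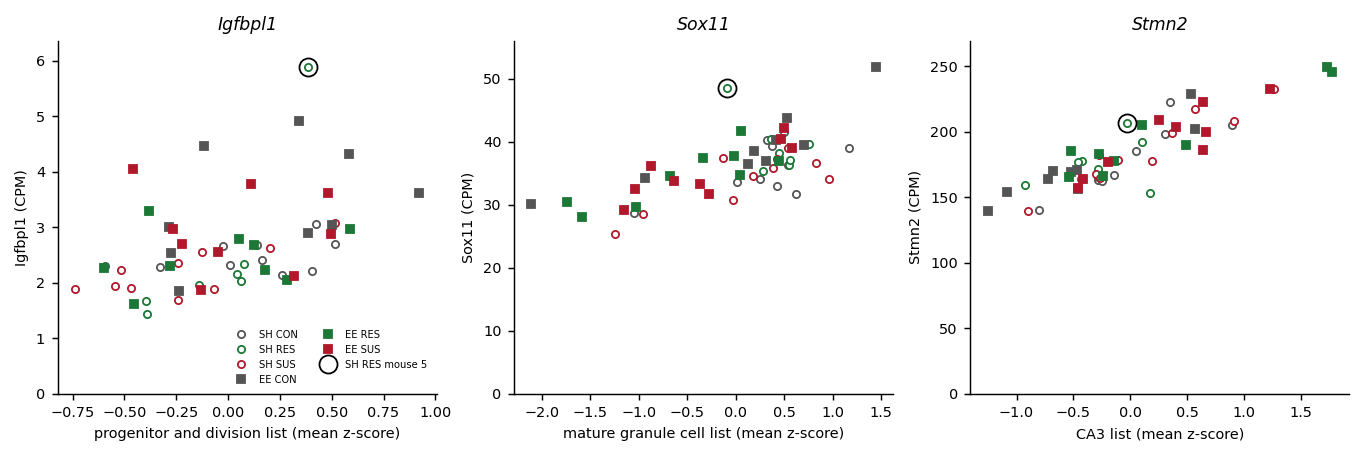
One point per mouse, with the mean z-score of a marker list on the x axis and CPM on the y axis (from 0), for Igfbpl1 and the progenitor and division list, Sox11 and the mature granule cell list, and Stmn2 and the CA3 list. Circles are SH and squares EE mice, and the ringed SH RES mouse 5 lies above the other mice in the first panel (5.89 CPM) and well above mice of like score in the second (48.6 CPM).

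The genes most like each member across mice, by rho and outside the 9, also differed between members. For Igfbpl1 they were Knl1 (0.592), Nusap1 (0.573) and Top2a (0.569), which all encode proteins of mitotic chromosomes or the spindle, and for Sox4 Phtf1os (0.524), the pseudogene AA413626 (0.505) and again Knl1 (0.502). For Sox11 they were the phosphate exporter Xpr1 (0.789), Cemip (0.768) and Btg1 (0.750), for Neurod1 Lin7c (0.715), Ccdc85a (0.703) and Rsbn1 (0.691), and for Draxin Ccsap (0.677), Pnrc1 (0.658) and C1ql2 (0.658), the latter a member of the mature granule cell list. For Tubb3 they were Acot7 (0.898), the stathmin Stmn3 (0.889) and Actr1a (0.883), for Stmn2 Rasgrp1 (0.894), Cadps (0.887) and Atp6v1c1 (0.880), and for Neurod2 Sh3pxd2a (0.792), Exoc8 (0.782) and Sh3bp5 (0.771). For Dcx the values were lower, from Zkscan2 (0.616), Gm14636 (0.615), Flrt2 (0.613), Abca8b (0.594) and Gm32444 (0.590) to C130023A14Rik (0.578), Arpp21 (0.575), Lrrc4c (0.567), Zfp119a (0.566) and the small nucleolar RNA Gm25357 (0.553), and none of these 10 is in the immature neuron or progenitor lists.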

How the data were processed

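Deposited values are unnormalized gene-level counts (55 libraries, 54 mice). Submitters' processing notes name STAR, Picard and mm10. The study's methods name featureCounts, but each table is laid out like STAR output, with unstranded, forward and reverse columns. The reverse-strand column was used, since the forward column held 3.51% to 4.13% of the counts on either strand. Rows that name no gene were left out. The 2 runs of EE CON mouse 9 were summed. Identifiers were matched to GENCODE M21 (44671 of 45318).

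Counts were filtered with filterByExpr, normalized by TMM and tested over all 54 mice in 1 model with 6 group means by the quasi-likelihood test of edgeR 4.0.16 in R 4.3.3, with Benjamini-Hochberg adjustment over 18283 genes. limma 3.58.1 (the test of the study) and DESeq2 1.42.0 were alternatives. Models were tested on simulated data. Marker scores are mean z-scores of log2 CPM (prior count 2). Members and lists were chosen with earlier results of these data known. The text names the 9 members, at most 3 genes per lineage list and comparison by p, and the genes most alike by rho (10 for Dcx, 3 for others). The called mature granule cell genes, and Tmem72 and Barhl1, were named after their values were seen. The oligodendrocyte precursor, endothelial and immediate early gene lists also held called genes in EE minus SH, which are not named. Single genes of the oligodendrocyte list are not reported here. Equal replicate numbers were not treated as pairs in the main test. Groups and their sizes follow the labels, and the study's methods state fewer replicates than the labels hold for most groups. P-values measure the spread between mice of a group. Housing was given by cage, with more mice to an EE cage than to an SH cage. The labels do not name cages, so each mouse was counted as a separate unit. The housing p-values and intervals therefore do not cover differences between cages.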

Additional observations from a re-analysis of the deposited data

Results flagged for a closer look

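Among 54 pairs of a member and a group, 2 held a mouse whose gap to its nearest neighbour exceeded Dixon's 95% critical value, and both were SH RES mouse 5. Its Igfbpl1 level was 5.89 CPM against 2.33 in the next of 7 mice, a gap of 0.799 of the group's range, and its Sox11 level was 48.6 CPM against 40.4, a gap of 0.615. Chance flags about 1 in 20 groups, so 2 flags among 54 pairs are no more than chance gives.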

How the results depend on the processing

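The number of members called was 0 in every comparison and alternative run, with these exceptions. In EE minus SH over the phenotypes it was 1 (Igfbpl1) with limma-voom sample quality weights (log2 difference 0.37, adjusted p 0.019) and 1 without SH RES mouse 5, which was also the only mouse in the setting without mice that lay apart, a setting chosen after seeing the data (0.41, adjusted p 0.0044). In the test of any difference it was 1 in the latter setting (adjusted p 0.015). Over all fits that left out 1 mouse, both counts ranged from 0 to 1. With CA1, CA3 and mature granule cell scores as covariates the Tubb3 difference of EE minus SH in RES turned to -0.0017 and the Stmn2 difference of RES minus CON in EE to -0.0178. The share of read pairs on no gene as a covariate, and SUS minus RES over both housings and as an interaction, were also chosen after seeing the data. The 20 member results were the pairs with an unadjusted p under 0.05 in the main edgeR test. Of their 277 values under alternatives, 275 kept their sign, the exceptions being those of Tubb3 and Stmn2 above. All 1080 values with 1 mouse left out kept it too. That selection makes a kept sign likely, so these counts do not cover the other pairs. Without SH RES mouse 5, Igfbpl1 in SUS minus RES in SH turned from -0.17 to 0.19, and in RES minus CON in SH from 0.01 to -0.35.

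Equal replicate numbers were not treated as pairs. Deviations of same-numbered mice from their group means correlated at 0.030 on average, with 32 of 126 pairs over 0.1. Those of different-numbered mice correlated at -0.0035 on average, with 175 of 1086 pairs over 0.1. Of the 54 mice, 9 were closest to their own number. Whether mice of equal number share anything was not settled by these values. With the replicate block the number of members called was 0 in every comparison, and the EE minus SH difference of Igfbpl1 was 0.29 (adjusted p 0.11). Over all genes, EE minus SH called 680 genes with DESeq2, 581 with the replicate block, 444 with limma-voom and 242 without the low-count filter, beside 442. In RES it called 243 with DESeq2, 228 with the replicate block and 24 without the filter, beside 50. Depth limits Draxin and Igfbpl1, whose counts per mouse start at 6 and 26.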
